A study of Mus musculus with 4 samples.

Results

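The Mas-related G protein-coupled receptor cluster of the mouse lies on chromosome 7 and was taken as the stretch from 47 to 48.9 Mb in build mm10. It held 15 protein-coding receptors, 6 of the Mrgpra, 7 of the Mrgprb and 2 of the Mrgprx type, of 21631 protein-coding genes in the annotation, together with 12 receptor pseudogenes. It was measured in 94 windows of 20 kb with at least 10 CpGs valued in every sample, of 120249 such windows in the genome, and in 19130 listed cytosines of 37230584. The region had been chosen for its missing values, so the shares of cytosines with a value are a description and carry no test. The only window left out, chr7:47440001-47460000, which overlaps Mrgpra2a, had 8 CpGs, and the windows just inside the limit, at 47840001 and 47460001, had 11 and 13.

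Methylation had been read by whole-genome bisulfite sequencing with post-bisulfite adaptor tagging in male germ cells from testes of 21-day-old mice, 2 control and 2 knockout samples. Controls were Np95fl/fl, with both copies of Np95 flanked by loxP sites, and knockouts were Np95fl/fl:Stra8-Cre, so the floxed allele was shared by all 4 samples and the groups differed in the Cre transgene. The Stra8 promoter drives Cre in premeiotic male germ cells, and any cell in which it did not act, or any somatic cell that passed the 95 µm mesh, would keep Np95. No label names a batch or ties replicates to different animals, so the p-values below reflect only how far these samples spread, and that spread may be technical.

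Np95, also named Uhrf1, binds hemimethylated CpGs after replication and recruits Dnmt1, which copies methylation to the new strand. Mas-related receptors sense itch, pain and touch in small sensory neurons and activate mast cells, and germ cells are not a tissue in which they are known to act. Rodents carry many Mrgpra and Mrgprb copies that arose by tandem duplication, so that neighbouring genes and pseudogenes resemble each other. Mrgprx1, earlier named Mrgprc11, and Mrgpra3 are itch receptors of sensory neurons, Mrgpra1 responds to bilirubin, Mrgprb2 is the receptor through which many peptides and drugs activate mast cells, and Mrgprb4 marks neurons that respond to stroking of the skin.

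Promoters of these receptors hold few CpGs, which limits what bisulfite sequencing can read in them, and 3 are shown for the receptors described in most detail. Sequences are from RefSeq (GRCm38.p6), all on the minus strand, and cover the 250 bases before the annotated start, with every CpG in capitals. The Mrgprx1 stretch, chr7:48027598-48027847, holds 3 CpGs, the Mrgpra4 stretch, chr7:47982297-47982546, holds 0, and the Mrgprb4 stretch, chr7:48199179-48199428, holds 2.
Mrgprx1: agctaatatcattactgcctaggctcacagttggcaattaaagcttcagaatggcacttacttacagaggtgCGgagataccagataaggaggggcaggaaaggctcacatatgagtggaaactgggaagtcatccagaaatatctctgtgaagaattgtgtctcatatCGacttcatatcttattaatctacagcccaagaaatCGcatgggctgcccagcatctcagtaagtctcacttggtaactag
Mrgpra4: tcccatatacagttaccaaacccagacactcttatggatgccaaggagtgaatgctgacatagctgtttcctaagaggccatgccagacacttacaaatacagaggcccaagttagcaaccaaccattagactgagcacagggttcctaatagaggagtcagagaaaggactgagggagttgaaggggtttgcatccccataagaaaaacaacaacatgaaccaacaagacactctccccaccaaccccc
Mrgprb4: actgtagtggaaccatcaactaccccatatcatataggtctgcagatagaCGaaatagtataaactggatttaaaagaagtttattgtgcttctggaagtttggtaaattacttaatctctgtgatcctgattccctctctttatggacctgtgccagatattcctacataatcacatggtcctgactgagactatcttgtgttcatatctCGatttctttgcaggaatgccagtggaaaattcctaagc

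Across the promoter table, which covers 250 bases before to 50 after each start, 13 of the 15 receptors had an entry. These 13 promoters held 0 to 3 CpGs with a median of 1, and 4 of them, those of Mrgpra4, Mrgprb13, Mrgprx2 and Mrgprb2, had none. Of all 32851 promoters, with a median of 7 CpGs, 31.4% held 3 or fewer and 5.43% held none. Of the 30 CpG cytosines in the receptor promoters the deposited table listed 26 (86.7%), against 98.6% of 799506 over all promoters checked (31879). All 4 cytosines not listed belong to the pair Mrgpra2a and Mrgpra2b, whose promoters were identical over all 300 bases. The next most alike pair was Mrgprb5 and Mrgprb4 at 82.2% identity, and the median over 78 pairs was 51.3%. The only CpG in each Mrgpra2 promoter lies 18 bases after the start and is shown with its surrounding 30 bases at chr7:47452131-47452160 and chr7:47489549-47489578, because the same letters occur at both genes and neither has a value.
Mrgpra2a: ttctccagagcaaaCGaatatcctgtagta
Mrgpra2b: ttctccagagcaaaCGaatatcctgtagta

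Fewer cytosines of the cluster than of its surroundings had a value in all 4 samples. The kept share, meaning the share of listed cytosines valued in every sample, was 53.2% in the cluster (10169 of 19130), 78.8% in the 2 Mb on its left, 68.6% in the 2 Mb on its right and 60.2% in the genome. Within the cluster it was 42.1% in the receptor block, from the first to the last receptor gene or pseudogene (chr7:47185717-48685560), and 69.4% in the edges on either side of that block. The block was also the sparser part, with 152 listed cytosines per 20 kb against 387 in the edges, 610 in the left flank and 336 in the right. Among sparse windows, with at most 200 listed cytosines, the median kept share was 40.8% in the cluster and 37.7% in the genome. A low kept share therefore does not set the cluster apart from other sparse windows. Of the 94 windows with 10 CpGs or more, the 3 with the lowest kept share were those starting at 47840001 (15.7%, no gene), 47860001 (17.5%, Mrgpra18-ps) and 47660001 (17.9%, Gm2707), and the window left out for its 8 CpGs was lower still at 11.5%. The 3 with the highest lay in the edges, at 48860001 (83.2%, E2f8), 47080001 (82.8%, Ptpn5) and 47040001 (82.2%, Tmem86a).

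The missing values were not spread evenly over the samples. In the receptor block 76.1% and 74.3% of listed cytosines had a value in controls, compared with 59.5% and 61.6% in knockouts, so that both knockouts lay below both controls and the group means differed by 14.7 points. The difference was 16.5 points on the Mrgpra side of the block and 12.8 points from Mrgprx1 through the Mrgprb genes. It was -0.0258 points in the edges of the cluster, 0.193 in the left flank and 1.47 in the right. In the block 959 of 11380 listed cytosines (8.43%) had a value in both controls and in neither knockout, against 142 (1.25%) the other way round. In both flanks together the numbers were 1006 (1.06%) and 872 (0.922%) of 94573.

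The contrast varied within the block. In the window at 47700001, which holds Mrgprc3-ps, the share with a value was 79.7% and 83.0% in the controls but 30.7% and 41.2% in the knockouts. The window at 47580001, which holds Mrgpra3, was the opposite, with 73.2% in each control and 92.7% and 91.1% in the knockouts. A gap of at least 5 points in favour of the controls was seen in 58 of 94 windows of the cluster (61.7%) and in 11.9% of genome windows. Among sparse windows, with at most 200 listed cytosines, it was seen in 48 of 65 in the cluster (73.8%) and in 22.8% of 40742 in the genome. The table used here gives no read depth, and the part of depth in these gaps was not tested.

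**Figure D1:**
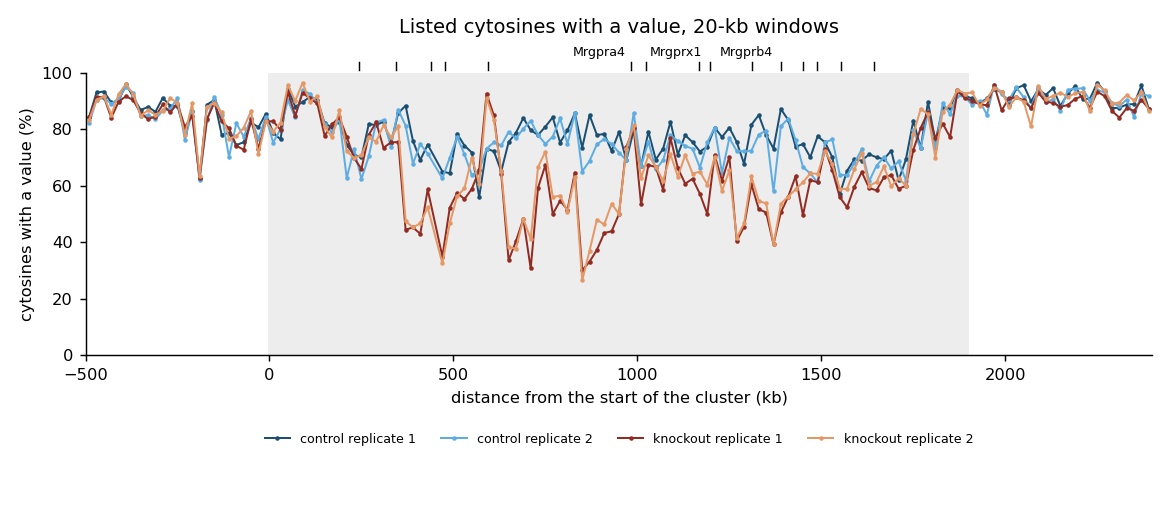
Share of listed cytosines with a value (y axis, percent) in 20-kb windows along the cluster (grey) and the 500 kb on either side (x axis, kb from the start of the cluster); each line is 1 sample and ticks mark the 15 receptors. Outside the receptor block the samples mostly run together. In the window at 48760001 the knockouts lie above the controls (80.5% and 87.2% against 73.3% in each control). Over most of the block the knockouts lie below the controls, and they lie farthest above them at Mrgpra3.

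Methylation of the cluster was lower in knockouts than in controls, by a number of points between those of its left and right flanks. Over the cytosines valued in all samples, the mean level of the cluster was 63.7% and 67.8% in controls and 34.6% and 35.0% in knockouts. Both knockouts lay far below both controls, at 34.8% ± 0.292 against 65.8% ± 2.88 (SD, n = 2 each). The difference was -31.0 points, and the exact two-sided permutation p was 0.333, the smallest that 2 against 2 samples allow. The retained share, meaning the knockout mean as a percentage of the control mean, was 52.9%, against 53.7% in both flanks together, where the level went from 67.6% to 36.3%. The flanks differed from each other, with differences of -28.2 points on the left and -37.7 on the right. The level of the cluster minus that of its flanks was -1.86 points in controls and -1.55 in knockouts, a change of 0.310 points (exact permutation p = 0.333). That change was -2.76 points against the left flank alone, 6.72 against the right flank alone and -0.550 with flanks of 5 Mb on either side, so no direction is given to it. When each sample was read on all of its own valued cytosines, the difference in the cluster was -31.1 points.

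In the controls, cytosines of the receptor block were more often partly methylated than those of the flanks. Levels strictly between 20% and 80% were found at 60.6% and 56.5% of control cytosines in the block and at 20.4% and 11.7% in both flanks together. Cytosines at 80% or above made up 28.0% and 34.1% of the block in controls and 0.877% and 1.15% in knockouts. In both flanks that class went from a mean of 61.5% to 2.03%. Cytosines at 20% or below went from 10.4% to 29.8% of the block, and from 22.5% to 27.5% of the flanks. The difference in these class shares between block and flanks was not tested.

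Of the 94 windows of the cluster 91 were lower in knockouts (96.8%) and none was higher, by limma fitted over all windows. A call needed both a shift of 10 points or more and an adjusted p (Benjamini-Hochberg) below 0.05. The same call was made for 98.4% of windows in the genome, for 97 of 100 in the left flank and for 100 of 100 in the right, so this count does not set the cluster apart. In all 94 windows both knockouts were below both controls, as in 99.9% of genome windows. The median level over windows went from 61.5% to 32.2% in the cluster and from 81.9% to 42.6% in the genome, and the median retained shares were 53.5% and 53.4%. Control levels under 50% were seen in 24 of 94 windows of the cluster (25.5%) and in 9.75% of genome windows. The standard deviation over windows of the cluster was 15.95 points for the control level and 7.24 for the knockout level.

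The 3 windows not called lay at the far end of the Mrgprb genes. The window at 48460001, which overlaps Mrgprx2 at one end, had levels of 35.2% and 39.8% in controls and 31.1% and 33.2% in knockouts, a difference of -5.33 points (limma adjusted p = 0.00803). The window at 48500001, with no gene, went from 40.3% and 40.1% to 31.1% and 30.7%, and that at 48640001, which holds the short gene Mrgprb3, from 31.8% and 33.0% to 23.6% and 25.7%. Each passed the p threshold and missed the call on the minimum of 10 points. The window at 48480001, which covers most of Mrgprx2, was called, with a difference of -10.5 points.

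**Figure D2:**
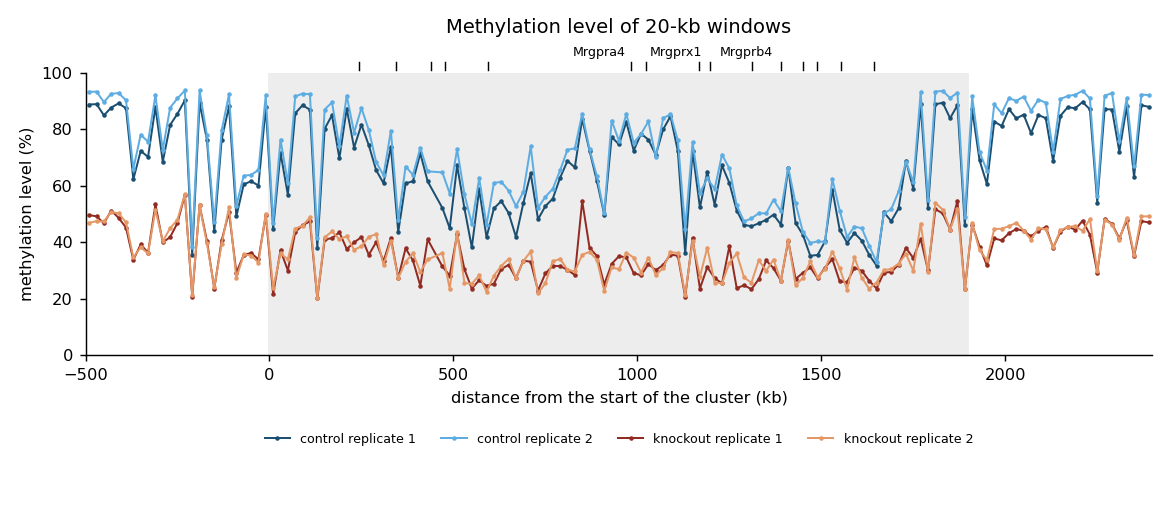
Mean methylation level (y axis, percent) of 20-kb windows along the cluster (grey) and the 500 kb on either side (x axis, kb from the start of the cluster); each line is 1 sample and ticks mark the 15 receptors. Both control lines lie above both knockout lines in every window of the cluster, as in 99.9% of genome windows. The groups come closest over the last Mrgprb genes, where the control level is lowest.

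At the receptor genes, read over the annotated span with 2000 bp added on each side, 13 of 15 had the 10 CpGs needed for the test, and 13 of these 13 were lower in knockouts, against 90.4% of the 19884 gene loci tested. Their median went from 55.0% to 30.3%, with a retained share of 57.3% and a range of 39.1% to 72.8%, and over all gene loci tested the medians were 62.5% and 34.8% with a retained share of 55.8%. The largest adjusted p among the 13 was 4.61e-10. These p-values rest on a variance shared between loci of like level, whatever their number of CpGs. With each locus's own spread, 11 of the 13 were called, and the adjusted p was 0.0756 at Mrgpra2b and 0.0723 at Mrgprb8.

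Control levels of the receptors fell into an upper group and a lower one. Mrgpra9, Mrgpra1, Mrgprx1, Mrgprb4 and Mrgprb5 lay at 73.1% to 79.2%, and their lowest control sample (71.2%, Mrgprx1) was above the highest of the other 10 receptors (62.0%, Mrgpra2b). Within each group neighbours in the order were mostly closer than the spread of their replicates, as for Mrgprb4 (73.1% ± 1.79) and Mrgprx1 (73.1% ± 2.67; SD, n = 2 each). In knockouts all 15 lay between 21.7% (Mrgpra4) and 38.0% (Mrgpra1).

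**Figure D3:**
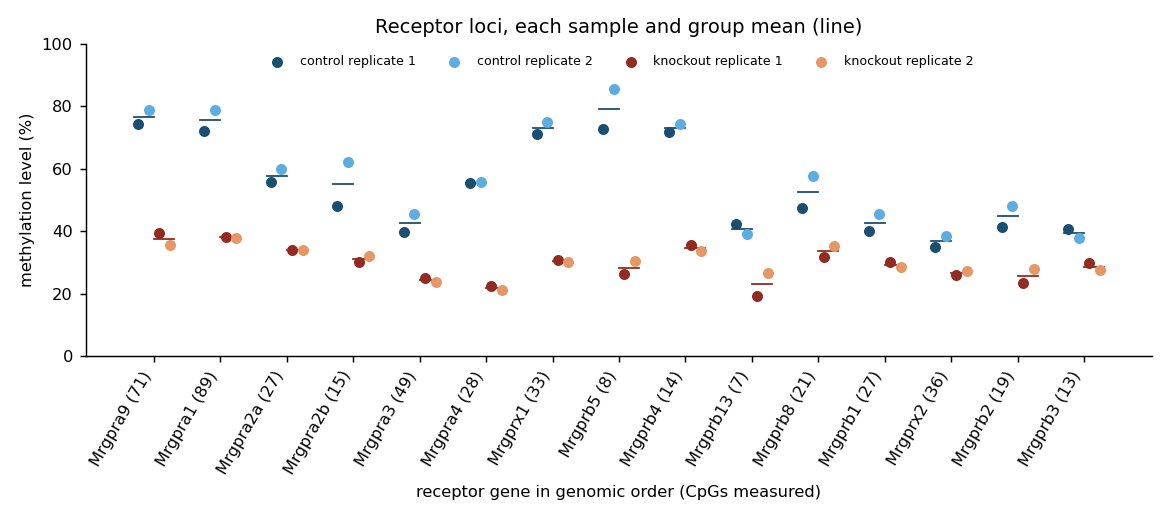
Methylation level (y axis, percent) of the 15 receptor loci with 2000 bp added on each side, in genomic order with the number of CpGs measured (x axis); points are samples and short lines are group means of 2 samples. At every receptor both knockouts lie below both controls, as in 99.0% of the gene loci tested. The gaps are widest at Mrgprb5, Mrgprx1, Mrgpra9 and Mrgprb4 and narrowest at Mrgprx2 and Mrgprb3.

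Mrgprx1, the itch receptor at chr7:48020971-48027597, was at 71.2% and 75.0% in controls and 30.6% and 30.1% in knockouts over 33 CpGs. The groups were separated by more than 40 points. The difference of -42.8 points (limma adjusted p = 5.97e-61) was the largest among the 13 receptors tested, and the retained share was 41.5%. Of its 43 cytosines valued in every sample, 38 were lower in both knockouts than in both controls. The share over all cytosines was not computed, so this count and those for Mrgpra4 and Mrgprb4 below only describe the loci. In the controls 19 of the 43 averaged 80% or more and in the knockouts 0 did, while 12 averaged 20% or less in the knockouts and 0 in the controls. Over the receptor block, counted in each sample, these classes held means of 31.0% and 10.4% in controls and 1.01% and 29.8% in knockouts. The knockout counts therefore do not set Mrgprx1 apart from the block. The 37 cytosines inside the gene retained 44.2%. The 3 before its start and the 3 after its end retained 33.5% and 11.3%. The knockouts were at 18.3% and 37.1% before the start and at 13.3% and 0% after the end. With so few cytosines the replicates spread widely, and the difference between these parts was not tested.

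Of the 6 cytosines in the 3 promoter CpGs of Mrgprx1 printed above, 2 had a value in every sample. The cytosine 44 bases before the start, in the CpG nearest to it, was at 86.4% and 100% in controls and 26.1% and 25% in knockouts. The cytosine 178 bases before the start was at 71.4% and 81.8% in controls and 18.2% and 50% in knockouts. At both, the knockouts lay below the controls, with a wider spread between knockouts at the second.

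Mrgpra4, a receptor of the Mrgpra type expressed in sensory neurons, spans chr7:47980794-47982296 and was at 55.3% and 55.8% in controls and 22.3% and 21.1% in knockouts over 28 CpGs. Replicates differed by little more than 1 point and the groups by -33.8 points (limma adjusted p = 1.48e-76). Its retained share of 39.1% was the lowest of the 13 receptors tested and its kept share of 75.4% the highest of all 15. Of its 46 cytosines 36 were lower in both knockouts, and all 46 by the group means. Control means ranged from 11.1% to 100% and knockout means from 5.53% to 48.1%. The level differed within the locus. The 31 cytosines inside the gene averaged 40.8% and 42.2% in controls and 17.0% and 16.0% in knockouts, while the 10 beyond its end averaged 88.6% and 86.7% in controls and 30.05% and 35.0% in knockouts. Both parts kept a like share of the control level, 39.8% and 37.1%. Its promoter, with no CpG, could not be read.

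Mrgprb4, the marker of stroking-sensitive neurons at chr7:48198213-48199178, was at 71.9% and 74.4% in controls and 35.4% and 33.5% in knockouts over 14 CpGs. The groups differed by -38.7 points (limma adjusted p = 2.58e-43) and the retained share was 47.1%. Of its 22 cytosines 19 were lower in both knockouts, and 7 of the 22 lay inside the gene, where the level went from 71.0% and 72.4% to 39.7% and 43.3%. Those 7 retained 57.9%, against 42.2% for the 15 before the start. In its promoter the cytosine 38 bases before the start was at 75.0% and 62.5% in controls and 21.1% and 38.5% in knockouts. The cytosines 199 and 200 bases before it belong to 1 CpG and lie on opposite strands. The first was at 81.8% and 65.4% in controls and 42.9% and 52.9% in knockouts. The second was at 58.3% and 70% in controls and 36.4% and 23.1% in knockouts.

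**Figure D4:**
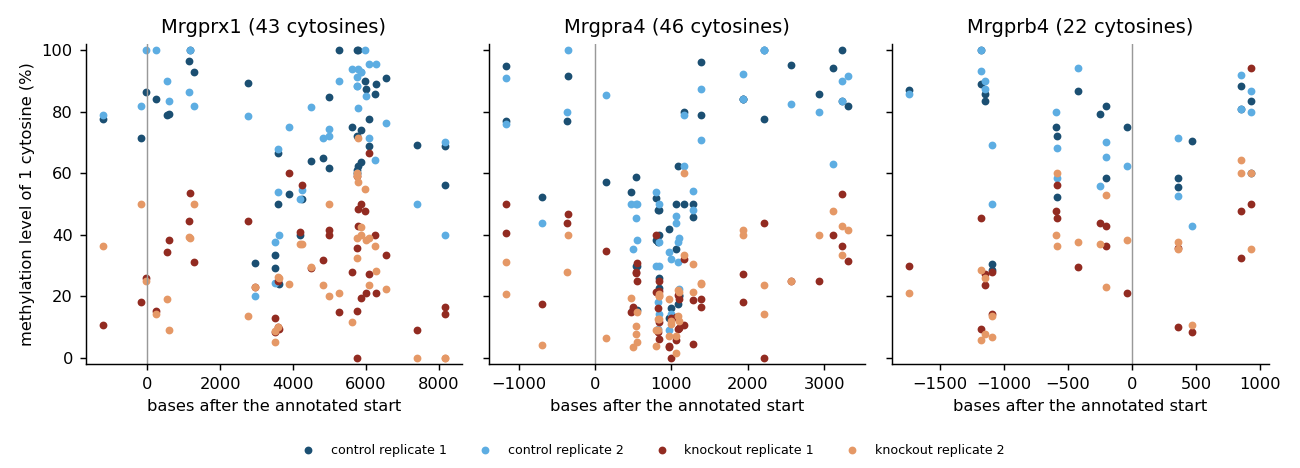
Methylation level of single cytosines (y axis, percent) by position relative to the annotated start (x axis, bases, grey line at the start) over the Mrgprx1, Mrgpra4 and Mrgprb4 loci, for cytosines valued in all 4 samples; each point is 1 sample. Control points reach 100% at each gene. At 38 of 43, 36 of 46 and 19 of 22 cytosines both knockouts were lower than both controls. The share over all cytosines was not computed.

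Among the other Mrgpra receptors, Mrgpra1 and Mrgpra9 were the best measured. Mrgpra1, the bilirubin receptor (chr7:47334875-47354240), was at 72.2% and 78.9% in controls and 38.2% and 37.8% in knockouts over 123 kept cytosines, and Mrgpra9 (chr7:47234919-47252879) at 74.3% and 78.8% and at 39.5% and 35.4% over 97. The Mrgpra1 difference of -37.6 points was -23.5 with 5000 bp added on each side. Mrgpra3, the receptor for chloroquine itch (chr7:47588950-47601372), had a lower level in both groups, 39.8% and 45.4% in controls and 25.1% and 23.7% in knockouts over 76 cytosines. The identical-promoter pair was poorly covered. Mrgpra2b (chr7:47463807-47489582) had a kept share of 14.8%, the lowest of the 15 receptors, and levels of 48.0% and 62.0% in controls and 30.3% and 31.9% in knockouts over 17 cytosines. Mrgpra2a had a kept share of 27.5% and levels of 55.9% and 59.8% in controls and 34.0% and 33.9% in knockouts. Where reads could be placed on either copy, the values of these genes are uncertain.

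The Mrgprb genes beyond Mrgprb4 had lower control levels than Mrgprb4 and Mrgprb5. Mrgprb8 was at 47.4% and 57.8% in controls and 31.8% and 35.2% in knockouts. Mrgprb1 was at 39.9% and 45.4% in controls and 30.1% and 28.5% in knockouts, and Mrgprb2, the mast cell receptor, at 41.3% and 48.2% and at 23.3% and 28.0%. At each of these 3 loci both knockouts lay below both controls, as in 99.0% of the gene loci tested.

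Mrgprx2, earlier named Mrgprb10, and Mrgprb3 lost least. Mrgprx2 (chr7:48478619-48499270) went from 34.9% and 38.5% to 25.8% and 27.4%, a difference of -10.1 points (limma adjusted p = 4.61e-10). Mrgprb3 (chr7:48642863-48643801) went from 40.8% and 37.9% to 29.6% and 27.6%, a difference of -10.7 points (limma adjusted p = 3.78e-10). Both sit at the 10-point minimum. The call at Mrgprx2 was lost without control replicate 2 (-8.26 points) or knockout replicate 1 (-9.33 points), and that at Mrgprb3 without control replicate 1 (-9.22 points) or knockout replicate 2 (-9.70 points).

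Mrgprb5 and Mrgprb13 had too few CpGs for the test, with 11 kept cytosines each in 8 and 7 CpGs. Mrgprb5 (chr7:48168017-48168985) was at 72.7% and 85.6% in controls and 26.1% and 30.5% in knockouts. Mrgprb13 (chr7:48311304-48312323) was at 42.3% and 39.0% in controls and 19.2% and 26.7% in knockouts. Both knockouts lay below both controls at each gene, as in 99.0% of the gene loci tested.

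The retained share differed along the block, in sections that were delimited after the values had been seen. In the middle section, chr7:47800001-48100000, from Mrgprc7-ps through Mrgpra4 and Mrgprx1 to Mrgprb12-ps, the level was 72.4% and 75.1% in controls and 31.6% and 31.9% in knockouts. In the section at the Mrgprb end, chr7:48440001-48660000, from Mrgprb1 through Mrgprx2 and Mrgprb2 to Mrgprb3, it was 43.0% and 46.02% in controls and 29.5% and 30.1% in knockouts. The sections thus differed by 29.4 and 29.1 points in the controls and by 2.14 and 1.82 points in the knockouts. The retained shares were 43.1% and 66.9%, on 786 and 628 kept cytosines, and they were 43.0% and 66.5% when each sample was read on its own valued cytosines. Because the sections were picked by this measure, no test is given.

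Windows that retained less than 45% numbered 15 of 94 in the cluster (15.96%), against 0.476% of genome windows and 1 of 200 flank windows. All 15 were sparse, which makes 15 of the 65 sparse windows of the cluster (23.1%) against 0.987% of the sparse windows of the genome. Of these 15, 11 lay in the middle section, among them the windows of Mrgpra4 (43.1%) and Mrgprx1 (42.0%). That section was picked by its retained shares, so this count only describes it. The limits of 45% and 70% were not planned either, and the shares of windows beyond them carry no test. Windows that retained 70% or more numbered 5 (5.32%), all between 48460001 and 48660000, against 0.853% of genome windows. They were 5 of the 65 sparse windows (7.69%), against 1.47% of the sparse windows of the genome. All 5 had control levels under 50%, and the share among genome windows of like control level was not computed. Among sparse windows under 50% the median retained share was 62.4% in the cluster and 64.8% in the genome. The gap in valued share, controls minus knockouts, differed between the sections, at 19.3 points in the middle section and 6.49 points at the Mrgprb end. Within the middle section, wider gaps did not go with lower retained shares. The windows at 47840001, 47860001, 47880001 and 47900001 retained 47.7% to 55.2% and had gaps of 32.7 to 41.9 points. The 11 windows under 45% all had smaller gaps, the lowest at -4.37 points. The part of the gap in the retained share was not tested. Of the 15 windows of the middle section 14 had a gap above 0, with a median of 21.8 points and a range of -4.37 to 41.9. So did 11 of 11 windows at the Mrgprb end, with a median of 6.63 points. In the cluster it was 76 of 94 windows, and in the genome 78065 of 120249.

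**Figure D5:**
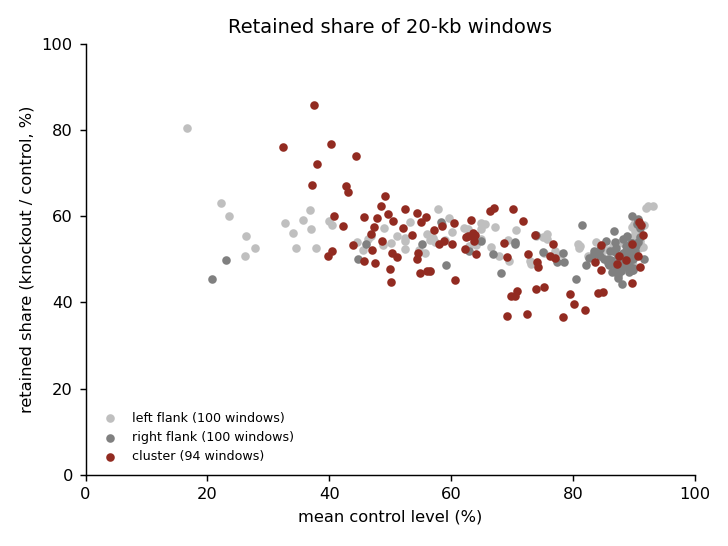
Retained share (knockout mean as a percentage of control mean, y axis) against mean control level (x axis, percent) for 20-kb windows of the cluster (94, red) and of the flanks (100 on each side, grey). Windows of the cluster reach from 36.7% to 85.8%, with low values at control levels of about 70% to 85% and high values at control levels under 50%.

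Windows were also compared with windows of like control level. At control levels of 70% or more the median retained share was 49.5% in the cluster and 52.6% in the genome, and among sparse windows 43.1% and 52.4%. At 50% to 70% the medians were 54.3% and 55.6%, and below 50% they were 59.99% and 56.6%. Among sparse windows below 50% the genome was the higher, at 64.8% against 62.4% in the cluster. These medians are descriptions over neighbouring windows, which share their samples.

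The retained shares of the receptor pseudogenes started as low as those of the receptor genes and reached higher. Of the 12, 8 had at least 10 CpGs, and in these 8 both knockouts were below both controls, as in 99.0% of the protein-coding gene loci tested. Their retained shares ran from 39.8% to 89.0%. Mrgprc7-ps and Mrgprb7-ps, in the middle section, retained 39.8% and 40.9%. Mrgprb9-ps, at the Mrgprb end, was at 33.5% and 37.1% in controls and 29.96% and 32.8% in knockouts and retained 89.0%, the most of these 8. These pseudogenes were not part of the test over protein-coding genes.

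Genes of the same family and pathway elsewhere spanned a narrower range of retained shares than the receptors of the cluster, on more CpGs (59 to 299 at the receptors elsewhere, 13 to 89 at those tested in the cluster). All 6 Mas-related receptors outside it (Mas1, Mrgprd, Mrgpre, Mrgprf, Mrgprg and Mrgprh) were lower in knockouts, as were 90.4% of all gene loci tested, and none was higher. Their retained shares were 49.9% to 58.0%. Mrgprd, the beta-alanine receptor of skin nociceptors, went from 68.4% ± 1.38 to 39.7% ± 2.19 (SD, n = 2 each) and retained 58.0%. The 6 genes that relay receptor signals in sensory neurons and mast cells were also all lower, with retained shares of 49.96% to 58.9%. They comprised the G protein subunits Gnaq and Gna11, the phospholipase Plcb3, the channels Trpa1 and Trpv1 and the itch peptide gene Nppb. Gm51464, the only other protein-coding gene of the receptor block, was lower as well, at 41.2% in controls and 21.2% in knockouts. Of 14 other genes in the edges and flanks, 14 were lower, at 48.6% (Saa1) to 59.3% (E2f8). Kept shares were 14.8% to 75.4% at the tested receptors of the cluster and 69.8% to 89.2% at the receptors outside it. No test of the difference in retained share between these lists was made.

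The labelled cell type was checked on the starts of germ cell genes, since RNA was not measured here. The CpG-rich starts of Ddx4, Dazl, Mael, Sycp1 and Sycp3 had control means of 3.78% to 6.86%, and 3 of 4 maternally methylated imprinted genes (Nnat, Peg3 and Mest), which are unmethylated in male germ cells, had 3.70% to 6.37%. In knockouts the means were 10.3% to 17.8% at the germ cell gene starts and 6.36% to 9.86% at the imprinted genes. The groups overlapped at Ddx4, with 8.03% and 5.70% in controls and 15.5% and 5.13% in knockouts, and at Peg3. Of the markers of other testis cells, the start of the mast cell gene Cpa3 went from 85.8% to 39.2%, that of the Leydig cell gene Hsd3b1 from 94.1% to 41.7% on 3 cytosines, and that of Kit, which germ cells express too, from 1.12% to 0.813%. For Sox9, Amh, Cyp17a1 and Peg10 no cytosines entered the check, so no Sertoli cell gene had a level. Methylation of a promoter does not count cells, so the share of other cell types was not tested.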

How the data were processed

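The authors deposited a table that gives, for each cytosine of a CpG and each sample, the percent of reads methylated. Each strand has its own row, and a sample can lack a value. Its title names a minimum of 10 reads. Read depth per value is unknown, so values were weighted equally and no binomial interval is given. The build was mm10, per the submitters' processing notes, and for the aligner and caller: not given in the sources used here. Genes and promoters came from RefSeq tables of GRCm38.p6, the same build. Of the promoter CpG cytosines checked, 98.6% were at listed positions.

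Levels are means over cytosines valued in all 4 samples. Windows of 20 kb and gene loci with 2000 bp on each side needed 10 CpGs. They were tested with limma 3.58.1 (R 4.3.3; trended, robust variance) over the whole genome, after converting each mean m (0 to 1) to log2((m + 0.01)/(1 - m + 0.01)). Calls needed a Benjamini-Hochberg adjusted p under 0.05 and 10 points. Single values were tested by exact permutation (SciPy 1.17.1), and promoters were aligned with Biopython 1.88.

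The region, its members and the gene lists were chosen with earlier results of these data known. Mrgprx1, Mrgpra4 and Mrgprb4 were to be given in full, then of the other receptors the 3 with the most and the 3 with the fewest kept cytosines and any not called, and of the windows the 3 lowest and 3 highest kept shares and any not called. Other receptors are named for the order of levels, after their values were seen.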

Additional observations from a re-analysis of the deposited data

How the results depend on the processing

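The kept share of the cluster was below that of its flanks under every definition tried: 68.6% against 89.4% for CpGs with at least 1 kept cytosine, 70.9% against 88.0% for a value in at least 3 samples, and 76.6% against 91.8% for a value in at least 1 control and 1 knockout. It was 42.1% in the receptor block alone, an alternative added after seeing the data, and 56.0% to 59.5% when each replicate was left out in turn. Called windows numbered 163 of 172 at 10 kb and 37 of 38 at 50 kb. They numbered 87 of 94 with each region's own spread, and 90 or 91 when a replicate was left out. The change in the gap between cluster and flanks, 0.310 points, was -0.550 with flanks of 5 Mb and 5.50 with flanks of 1 Mb, 5.75 as a mean over windows, 4.08 as a median and 5.25 on isolated CpGs, the last also added later. With the replicate number as a block the calls were 91 windows and 13 loci and the difference was -31.0 points, as without it. Nothing in the labels ties replicates of 1 number together and only 2 such pairs exist, so they were not treated as pairs. The correlation of their deviations was 0.0626 over windows and 0.117 over loci. Over single receptors, 7 settings lost a call and none turned a direction. They include Mrgprx2 with 5000 bp on each side (-9.72 points), and the others are given with the genes. Depth limits every value here in a way that cannot be computed, and at Mrgpra2a and Mrgpra2b few cytosines were read in all samples.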
